A study of Solanum lycopersicum with 24 samples.

Results

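SlSHR (Solyc02g092370) and SlSCR (Solyc10g074680) are the tomato genes named SHORT-ROOT and SCARECROW, and both are transcription factor genes of the GRAS family. They were picked by locus identifier: these 2 rows were taken from the 34688 transcripts of the deposited table, which holds 1 transcript per locus. By their identifiers SlSHR lies on chromosome 2 and SlSCR on chromosome 10. The identifiers were not paired with names in the files or the reference table, so the names rest on the identifiers alone. Coordinates and sequences of the genes are not used here.

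In Arabidopsis, SHORT-ROOT is transcribed in the stele, and its protein moves outward into the neighbouring cell layer. There it switches on SCARECROW, and the pair acts together in the nucleus to drive the asymmetric division that separates cortex from endodermis. SCARECROW also holds SHORT-ROOT in the nucleus, which limits its movement, and it is needed in the quiescent centre to maintain the root stem cells. These roles are known from Arabidopsis and are background here.

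The samples were tips of hairy roots, which are root cultures grown from tissue transformed with Rhizobium rhizogenes, from the tomato cultivar M82. All 8 groups shared this background and 9 days of dark growth at 25 °C with 3% sucrose in the medium. The groups were SlMYB41 overexpression, SlMYB41 knockout, SlMYB92 overexpression, SlMYB92 knockout, SlWRKY71 overexpression, SlWRKY71 knockout lines 4 and 5, and an empty-vector control, with 3 libraries each. Overexpression was from the constitutive CaMV 35S promoter as fusions with a 3xFLAG tag, and knockouts were made with CRISPR/Cas9. Each sample pooled the first 1 cm of 10 root tips. The sample labels state 4 biological replicates, while the series holds 3 libraries per group. The sample labels number a line for the SlWRKY71 knockout alone, and how many lines stand behind the samples of each other group is not stated there. Differences between lines therefore cannot be told apart from differences between groups, and p-values measure only the spread between these samples. The series design asks how losing or overexpressing these exodermis-enriched transcription factors changes the transcriptome. The comparisons here ask whether the levels of SlSHR and SlSCR differ with those changes.

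Libraries held 4852464 to 15372241 estimated counts, and 18297 genes, both members among them, passed the filter on low counts. Levels are given as CPM, the counts of a gene relative to the library total, scaled between libraries by TMM. Libraries are named by the number in their column. The loci taken from memory as the 3 targets had their highest group means in their own overexpression groups. SlMYB41 (Solyc02g079280) stood at 7.18 to 13.6 CPM in its overexpression libraries and 0 to 0.159 CPM in the control, and SlMYB92 (Solyc05g051550) at 48.3 to 87.6 CPM and 0 to 0.188 CPM. SlWRKY71 (Solyc02g071130) stood at 5.21 to 41.5 CPM in its overexpression libraries, 1.06 to 3.15 CPM in knockout line 4, 0.456 to 4.30 CPM in line 5 and 1.13 to 1.99 CPM in the control. In the SlMYB92 knockout SlWRKY71 stood at 0.717 to 5.55 CPM. Its overexpression library 2, at 5.21 CPM, was thus not above all libraries of other groups. A count of an edited gene need not fall, so these counts do not check the knockouts. Markers of root cell types could not be checked, since the identifiers were not paired with names.

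SlSHR and SlSCR were detected in all 24 libraries, at low levels. SlSHR had 15 to 96 counts per library and 1013 in all, and SlSCR had 7 to 60 per library and 509 in all. On the CPM scale SlSHR ran from 2.53 to 10.9, with a median of 4.69, and SlSCR from 1.22 to 6.25, with a median of 2.06. Mean CPM was above that of 30.8% of tested genes for SlSHR and of 19.1% for SlSCR, on a scale that is not corrected for transcript length. The root tips were measured in bulk, where fewer cells of a type and less RNA per cell cannot be told apart.

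Precision per library was set by these counts. The 7 SlSCR counts of SlMYB41 overexpression library 3 gave 1.36 CPM with an exact Poisson 95% interval of 0.546 to 2.80 CPM. The 60 SlSCR counts of SlWRKY71 overexpression library 5 gave 6.25 CPM with an interval of 4.77 to 8.04 CPM. For SlSHR, the fewest counts, 15 in SlMYB92 overexpression library 2, gave 2.61 CPM (1.46 to 4.31 CPM), and the most, 96 in SlWRKY71 overexpression library 5, gave 9.99 CPM (8.09 to 12.2 CPM). Reads were not marked by molecule, and these intervals cover counting error only.

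SlSHR, the stele-expressed partner in Arabidopsis, had overlapping libraries throughout. With SlMYB41 overexpressed it was at 5.72, 4.46 and 2.53 CPM in libraries 2, 3 and 5. In the SlMYB41 knockout it was at 3.75, 2.73 and 4.86 CPM in libraries 2, 3 and 5. These 2 groups covered nearly the same low range.

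With SlMYB92 overexpressed, SlSHR was at 2.61, 5.31 and 3.99 CPM in libraries 2, 3 and 4. In the SlMYB92 knockout it was at 4.51, 9.20 and 5.61 CPM in libraries 2, 3 and 5. Knockout libraries 3 and 5 stood above all the overexpression libraries, and the groups overlapped through knockout library 2.

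With SlWRKY71 overexpressed, SlSHR was at 4.05, 7.28 and 9.99 CPM in libraries 2, 4 and 5. It was at 3.94, 4.03 and 9.11 CPM in libraries 2, 3 and 4 of SlWRKY71 knockout line 4, and at 2.90, 10.9 and 7.29 CPM in libraries 2, 3 and 5 of line 5. The control libraries 2, 3 and 5 were at 7.73, 2.54 and 5.83 CPM. The ranges of these 4 groups overlapped, and the highest SlSHR value of the series was in line 5.

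SlSCR, the partner that marks endodermis and quiescent centre in Arabidopsis, was at 3.62, 1.36 and 2.03 CPM in SlMYB41 overexpression libraries 2, 3 and 5. In the SlMYB41 knockout it was at 1.88, 1.89 and 1.75 CPM in libraries 2, 3 and 5. The knockout libraries were nearly equal and lay inside the range of the overexpression libraries.

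With SlMYB92 overexpressed, SlSCR was at 2.61, 1.33 and 1.38 CPM in libraries 2, 3 and 4. In the SlMYB92 knockout it was at 3.45, 1.75 and 3.22 CPM in libraries 2, 3 and 5. Knockout libraries 2 and 5 were above all overexpression libraries, and knockout library 3 was among them.

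With SlWRKY71 overexpressed, SlSCR was at 2.17, 5.30 and 6.25 CPM in libraries 2, 4 and 5. It was at 1.58, 1.92 and 2.08 CPM in libraries 2, 3 and 4 of SlWRKY71 knockout line 4, and at 1.77, 2.66 and 1.22 CPM in libraries 2, 3 and 5 of line 5. The control libraries 2, 3 and 5 were at 3.40, 2.54 and 4.42 CPM. SlWRKY71 overexpression libraries 4 and 5 held the highest SlSCR values of the 24 libraries, while library 2 lay within the range of knockout line 5.

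**Figure D1:**
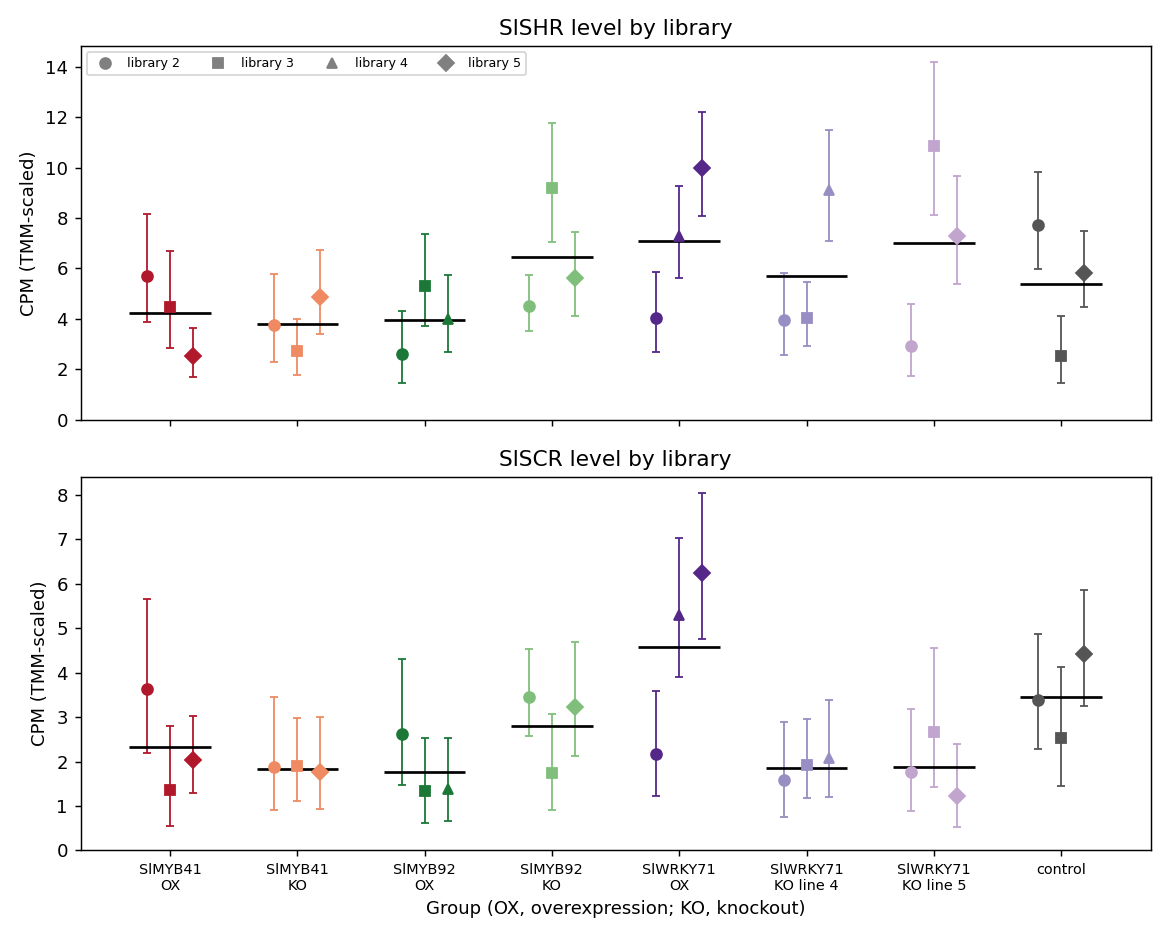
Levels of SlSHR (top) and SlSCR (bottom) in CPM for each library of the 8 groups; symbols give the library number, bars the exact Poisson 95% interval and black lines the mean of 3 libraries. SlSCR in SlWRKY71 overexpression libraries 4 and 5 is at 5.30 and 6.25 CPM, above all libraries of both SlWRKY71 knockout lines, while SlSHR ranges overlap between groups.

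By group mean, SlSHR was highest in SlWRKY71 overexpression, at 7.11 ± 2.98 CPM, and lowest in the SlMYB41 knockout, at 3.78 ± 1.06 CPM (SD, n = 3), a ratio of 1.88. In between, from high to low, came SlWRKY71 knockout line 5 (7.02 CPM), the SlMYB92 knockout (6.44 CPM), SlWRKY71 knockout line 4 (5.70 CPM), the control (5.37 CPM), SlMYB41 overexpression (4.24 CPM) and SlMYB92 overexpression (3.97 CPM). For SlSCR the highest mean was also in SlWRKY71 overexpression, at 4.57 ± 2.13 CPM, and the lowest was in SlMYB92 overexpression, at 1.77 ± 0.730 CPM (SD, n = 3), a ratio of 2.58. The order between them was the control (3.45 CPM), the SlMYB92 knockout (2.81 CPM), SlMYB41 overexpression (2.34 CPM), SlWRKY71 knockout lines 5 (1.88 CPM) and 4 (1.86 CPM) and the SlMYB41 knockout (1.84 CPM). No 2 neighbours in either order differed by more than the larger of their SDs, and the libraries of neighbouring groups overlapped in 7 of 7 pairs for each gene. Sorting by mean places like groups side by side, so this overlap does not show that the groups are alike. Groups farther apart in the order could separate: SlSCR in the SlMYB41 knockout and in SlWRKY71 knockout line 4 overlapped neither the control nor SlWRKY71 overexpression. The share of all genes with libraries fully apart was not counted, so whether this is unusual cannot be told.

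The spread between libraries of a group differed between the genes. SlSHR varied by 28.1% to 56.7% (coefficient of variation) within groups, above the 13.1% to 20.4% that counting alone gives, in 8 of 8 groups. SlSCR varied by 4.10% to 49.8%, with 17.7% to 31.1% from counting, and was above it in 6 of 8 groups. The exceptions were the SlMYB41 knockout, at 4.10%, and SlWRKY71 knockout line 4, at 13.9%. The fitted biological coefficient of variation was 39.7% for SlSHR and 31.1% for SlSCR, beside 28.1% for all genes in common.

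Whether either gene differed anywhere among the 8 groups was tested first. Neither passed: the edgeR quasi-likelihood adjusted p was 0.54 for SlSHR (F = 1.09) and 0.075 for SlSCR (F = 2.98; unadjusted p = 0.023). Of all tested genes, 25.7% passed this test. SlSCR did pass with DESeq2 (adjusted p = 0.033), without SlMYB41 overexpression library 2 (0.0496) and without SlWRKY71 overexpression library 2 (0.014). The edgeR adjusted p rose to 0.13 without the filter and to 0.23 with the column number as a replicate block. It was 0.20 without SlWRKY71 overexpression library 4 and 0.26 without library 5.

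Against the empty-vector control, neither gene passed in any of the 7 comparisons by edgeR's quasi-likelihood test, nor by DESeq2. At an unadjusted p under 0.05 there were 0 comparisons for SlSHR and 2 for SlSCR. These 2 were the SlMYB41 knockout (edgeR unadjusted p = 0.04999) and SlMYB92 overexpression (edgeR unadjusted p = 0.038). Their 95% intervals of the fold, 0.282 to 0.99997 and 0.267 to 0.961, exclude no change but are not adjusted for the number of genes. SlSHR had log2 fold changes from -0.52 to 0.40, positive in 4 of 7 comparisons. SlSCR had log2 fold changes from -0.98 to 0.40, positive in 1 of 7. The 7 comparisons share the same 3 control libraries, so they are not independent of each other.

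In SlMYB41 overexpression, SlSHR averaged 4.24 ± 1.60 CPM, and 5.37 ± 2.63 CPM in control libraries (SD, n = 3 each). Its log2 fold change was -0.39, with an SE of 0.50 and an edgeR adjusted p of 0.91. SlSCR averaged 2.34 ± 1.16 CPM, and 3.45 ± 0.939 CPM in control libraries, with a log2 fold change of -0.58, an SE of 0.44 and an edgeR adjusted p of 0.80. Here 0.978% of genes passed. The 95% intervals of the fold, 0.372 to 1.57 for SlSHR and 0.357 to 1.25 for SlSCR, include no change.

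In the SlMYB41 knockout, SlSHR averaged 3.78 ± 1.06 CPM, and 5.37 ± 2.63 CPM in control libraries (SD, n = 3 each), with a log2 fold change of -0.52, an SE of 0.50 and an edgeR adjusted p of 0.59. The SlSCR means were 1.84 ± 0.0754 CPM in the knockout and 3.45 ± 0.939 CPM in the control. This gave a log2 fold change of -0.91, with an SE of 0.44 and an edgeR adjusted p of 0.24. All 3 knockout libraries were below the 3 control libraries for SlSCR, without passing the test over all genes. The share of all genes with libraries fully apart was not counted. By the test, 5.11% of genes passed.

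With SlMYB92 overexpressed, SlSHR averaged 3.97 ± 1.35 CPM, and 5.37 ± 2.63 CPM in control libraries (SD, n = 3 each). Its log2 fold change was -0.44, with an SE of 0.50 and an edgeR adjusted p of 0.72. SlSCR had its lowest estimate against the control here, at -0.98 on the log2 scale, with an SE of 0.45 and an edgeR adjusted p of 0.26. Its means were 1.77 ± 0.730 CPM with SlMYB92 overexpressed and 3.45 ± 0.939 CPM in the control, and overexpression library 2 was inside the control range. The share of genes that passed was 3.28%. In the SlMYB92 knockout the log2 fold changes were 0.23 (SE 0.48; edgeR adjusted p = 0.93) for SlSHR and -0.29 (SE 0.42; edgeR adjusted p = 0.89) for SlSCR, where 2.87% of genes passed. The SlSHR estimate turned to -0.13 without knockout library 3 and to -0.09 without control library 3.

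With SlWRKY71 overexpressed, the estimates of both genes were above the control, without passing the test. For SlSHR the means were 7.11 ± 2.98 CPM in overexpression and 5.37 ± 2.63 CPM in the control, with a log2 fold change of 0.40, an SE of 0.48 and an edgeR adjusted p of 0.75. For SlSCR they were 4.57 ± 2.13 CPM and 3.45 ± 0.939 CPM, with a log2 fold change of 0.40, an SE of 0.41 and an edgeR adjusted p of 0.70. Of all genes 0.896% passed. Leaving out 1 library gave shares from 0.344%, without overexpression library 5, to 8.5%, without overexpression library 2. Without 1 library the log2 fold change ran from 0.038 to 0.74 for SlSHR and from 0.085 to 0.72 for SlSCR, lowest for both without overexpression library 5. Set against the mean of the 4 SlMYB41 and SlMYB92 groups in place of the control, SlSCR was higher by 1.09 on the log2 scale and passed (edgeR adjusted p = 0.031), as did 9.89% of all genes.

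The SlWRKY71 knockout lines gave nearly the same SlSCR level as each other. It averaged 1.86 ± 0.259 CPM in line 4 and 1.88 ± 0.729 CPM in line 5, and 3.45 ± 0.939 CPM in control libraries (SD, n = 3 each). The log2 fold changes were -0.89 (SE 0.44; edgeR adjusted p = 0.21) in line 4 and -0.90 (SE 0.45; edgeR adjusted p = 0.22) in line 5. All line 4 libraries were below the control libraries, and line 5 overlapped them through library 3. How many of all genes had line 4 and control libraries fully apart was not counted. SlSHR had estimates of 0.07 (SE 0.49; edgeR adjusted p = 0.95) in line 4 and 0.36 (SE 0.49; edgeR adjusted p = 0.69) in line 5. Here 6.92% and 7.79% of genes passed in lines 4 and 5. When 1 library was left out the lowest shares were 1.18% for line 4, without its library 4, and 2.42% for line 5, without control library 5.

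SlSCR was higher with SlWRKY71 overexpressed than in the SlWRKY71 knockout lines, the single comparison of the 13 in which either gene passed. It averaged 4.57 ± 2.13 CPM in overexpression (SD, n = 3) and 1.87 ± 0.490 CPM over both knockout lines (SD, n = 6). The fold was 2.46 (95% interval 1.46 to 4.14), a log2 difference of 1.30 (SE 0.36; edgeR adjusted p = 0.010). This was also the comparison in which most genes moved: 30.9% of all genes passed, 17.9% higher and 13% lower with SlWRKY71 overexpressed. These were 5652 genes, and the count was 2440 without overexpression library 4, 2871 without library 5 and 7334 without library 2. With all libraries, 16.0% of genes had a larger absolute log2 difference than SlSCR.

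Against each knockout line alone, a choice made after seeing the data, SlSCR was higher by 1.30 on the log2 scale with line 4 and by 1.30 with line 5 (edgeR adjusted p of 0.040 and 0.039). Of all genes 19.4% passed with line 4 and 22.8% with line 5. The call was lost without overexpression library 4 (1.21, edgeR adjusted p = 0.061) and without overexpression library 5 (0.98, edgeR adjusted p = 0.10), and was kept without each of the other 7 libraries. Overexpression library 2 had an SlSCR level within the range of knockout line 5 and above all line 4 libraries. It also had the lowest SlWRKY71 level of its group. SlWRKY71 stood at 5.21, 41.5 and 26.2 CPM in overexpression libraries 2, 4 and 5, beside SlSCR at 2.17, 5.30 and 6.25 CPM. SlSHR was lowest in library 2 as well, at 4.05, 7.28 and 9.99 CPM in the same libraries, so the order was not particular to SlSCR. With 3 libraries no such relation was tested. TMM factors were 0.941, 1.10 and 1.12 in these libraries and 0.909 to 1.01 in the knockout libraries. With RLE factors in place of TMM the log2 difference was 1.32 (edgeR adjusted p = 0.0098).

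SlSHR did not pass in the same comparison. It averaged 7.11 ± 2.98 CPM with SlWRKY71 overexpressed (SD, n = 3) and 6.36 ± 3.22 CPM over both knockout lines (SD, n = 6), a fold of 1.14 with a 95% interval of 0.627 to 2.06 (edgeR adjusted p = 0.77). Passing for SlSCR and not for SlSHR does not show that the genes differ in response. The ratio of SlSCR to SlSHR was tested for that, in a comparison added after the tests of each gene had been seen.

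**Figure D2:**
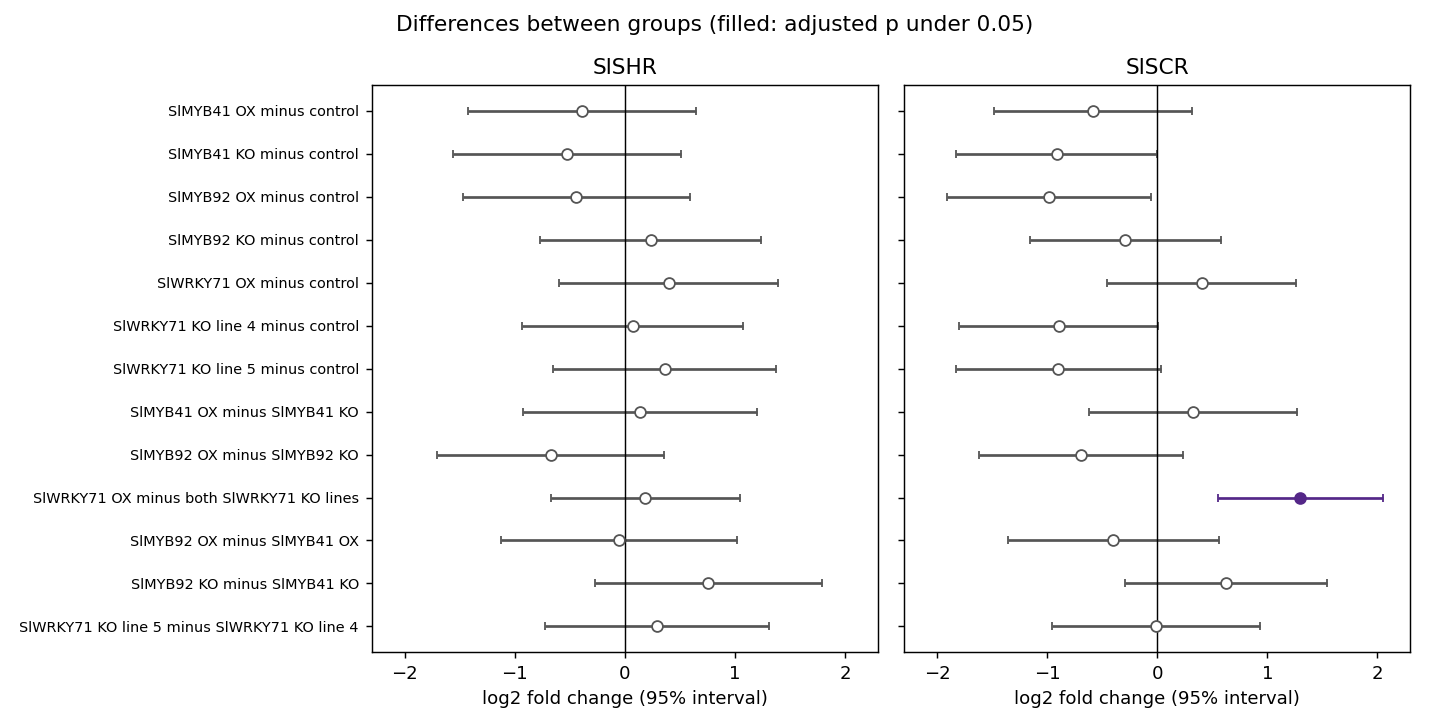
Log2 fold changes of SlSHR (left) and SlSCR (right) in the 7 comparisons with control and the 6 direct comparisons between groups (OX, overexpression; KO, knockout); points are edgeR estimates, bars 95% intervals and filled points have an adjusted p under 0.05. The single filled point is SlSCR in SlWRKY71 overexpression minus both SlWRKY71 knockout lines, at 1.30.

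The other 5 direct comparisons gave no call for either gene. Between SlMYB41 overexpression and the SlMYB41 knockout, where 3.2% of genes passed, the log2 differences were 0.14 (SE 0.51) for SlSHR and 0.33 (SE 0.46) for SlSCR, with edgeR adjusted p of 0.97 and 0.88. Between SlMYB92 overexpression and the SlMYB92 knockout, where 7.77% of genes passed, they were -0.67 (SE 0.50) and -0.69 (SE 0.45), with edgeR adjusted p of 0.46 and 0.39. Both estimates ran the same way, to lower levels with SlMYB92 overexpressed, by 0.627-fold for SlSHR (95% interval 0.307 to 1.28) and 0.618-fold for SlSCR (0.325 to 1.17).

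Between the SlMYB92 and SlMYB41 overexpression groups, where 0.552% of genes passed, the log2 differences were -0.05 (SE 0.51) for SlSHR and -0.40 (SE 0.46) for SlSCR, with edgeR adjusted p of 0.996 and 0.90. Between the SlMYB92 and SlMYB41 knockouts, where 0.355% passed, they were 0.76 (SE 0.50) and 0.62 (SE 0.44), with edgeR adjusted p of 0.56 and 0.59. Between SlWRKY71 knockout lines 5 and 4, where 0.0547% passed, they were 0.29 (SE 0.49) and -0.01 (SE 0.46), both with an edgeR adjusted p of 1. The interval for SlSCR between these lines, 0.517-fold to 1.91-fold, leaves room for a difference in either direction.

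The ratio of SlSCR to SlSHR within a library is little affected by how libraries are scaled, though the pseudocount keeps it from being free of scaling. It is a ratio of CPM on the log2 scale with a pseudocount of 0.5 CPM, not corrected for transcript length, so only its changes between groups can be read. Group means ran from -1.54 ± 0.84 in SlWRKY71 knockout line 5, the lowest, to -0.48 ± 0.55 in the control, the highest (SD, n = 3 each). SlWRKY71 overexpression was at -0.61 ± 0.17 and knockout line 4 at -1.30 ± 0.53. Differences among the 8 groups made up 27.2% of the variance. A permutation test over groups gave p = 0.56, so most shuffles of the libraries gave a share at least as large.

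Each of the 7 groups had a lower mean ratio than the control, by 0.13 to 1.06 on the log2 scale, and all overlapped with it. Exact two-sided permutation tests of these groups gave p from 0.20 to 0.80, where 3 libraries against 3 cannot go below 0.10. Between SlWRKY71 overexpression, at -0.77, -0.43 and -0.64 in libraries 2, 4 and 5, and both knockout lines, at -1.10, -0.91 and -1.90 in line 4 and -0.58, -1.84 and -2.18 in line 5, the ratio differed by 0.81, or by 0.80 with library totals in place of TMM. The exact two-sided permutation p was 0.071, where 3 libraries against 6 cannot go below 0.0119. Direct comparisons of the ratio, this one among them, were not planned and were added after the tests of each gene had been seen. The adjusted p was 0.87, but over 13 comparisons this design cannot bring an adjusted p under 0.05, so that value does not bear on whether the genes differ in response.

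**Figure D3:**
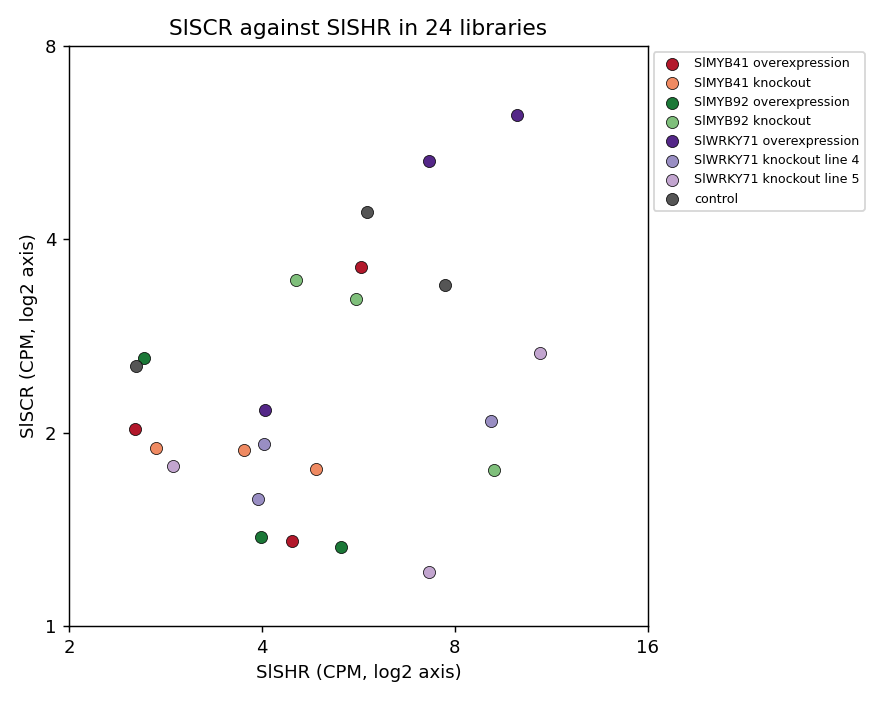
SlSCR against SlSHR in CPM, both on log2 axes, with 1 point per library and colours for the 8 groups. SlWRKY71 overexpression libraries 4 and 5 lie at the upper right, while the highest SlSHR library, at 10.9 CPM in SlWRKY71 knockout line 5, has 2.66 CPM of SlSCR.

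Over the 24 libraries the levels of the genes were weakly related. On log2(CPM + 0.5), Pearson's r was 0.35 (permutation p = 0.096) and Spearman's rho 0.29 (permutation p = 0.17). Without the 2 libraries farthest from the SlSHR median, library 3 of SlWRKY71 knockout line 5 and library 5 of SlWRKY71 overexpression, r fell to 0.20 (permutation p = 0.37) and rho was 0.13 (permutation p = 0.58). For deviations from the group means r was 0.25 (permutation p = 0.23) and rho 0.26 (permutation p = 0.22). The permutations over libraries ignored the groups, and deviations within a group are tied to each other, so these p may be too low. Over the 8 group means r was 0.54 (permutation p = 0.16) and rho 0.48 (permutation p = 0.25). Adjusted over these 8 values, p ran from 0.33 to 0.58. Both genes of a library share its depth.

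The loci beside each gene were described in the same comparisons, taking the 10 tested loci on either side in the order of locus numbers, which rise along a tomato chromosome. In SlWRKY71 overexpression against both knockout lines, the 20 loci beside SlSCR had a median log2 fold change of 0.43, beside 1.30 for SlSCR and 0.03 over all genes. Of these loci 13 were higher and 7 lower, with 5 called higher and 3 called lower. Over all genes 17.9% were called higher and 13% lower in this comparison. Of the nearest 5 on each side, 5 loci were higher and 5 lower, with 4 called higher and 2 called lower, and their median log2 fold change was -0.03. The median level of these 10 loci, taken within each library on log2(CPM + 0.5), was higher by 1.07 with SlWRKY71 overexpressed (SD within groups 0.35), so the 2 summaries differ. Beside SlSHR the 20 loci had a median of -0.15, with 2 called higher and 3 lower, against 0.18 for SlSHR itself.

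Against the control, the median log2 fold change of the 20 loci beside SlSHR ran from -0.22 in the SlMYB41 knockout to 0.04 in SlMYB41 overexpression. Called loci among them numbered 2 of 20 in the SlMYB41 knockout, beside 5.11% of all genes, and 3 of 20 in the SlMYB92 knockout, beside 2.87%. All of these were lower, and 0 were called in the other 5 groups. Beside SlSCR the medians ran from -0.21 in SlWRKY71 knockout line 5 to 0.09 in SlWRKY71 overexpression. In line 5, 1 locus was called higher and 1 lower, beside 7.79% of all genes, and no locus was called in the other 6 groups.

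**Figure D4:**
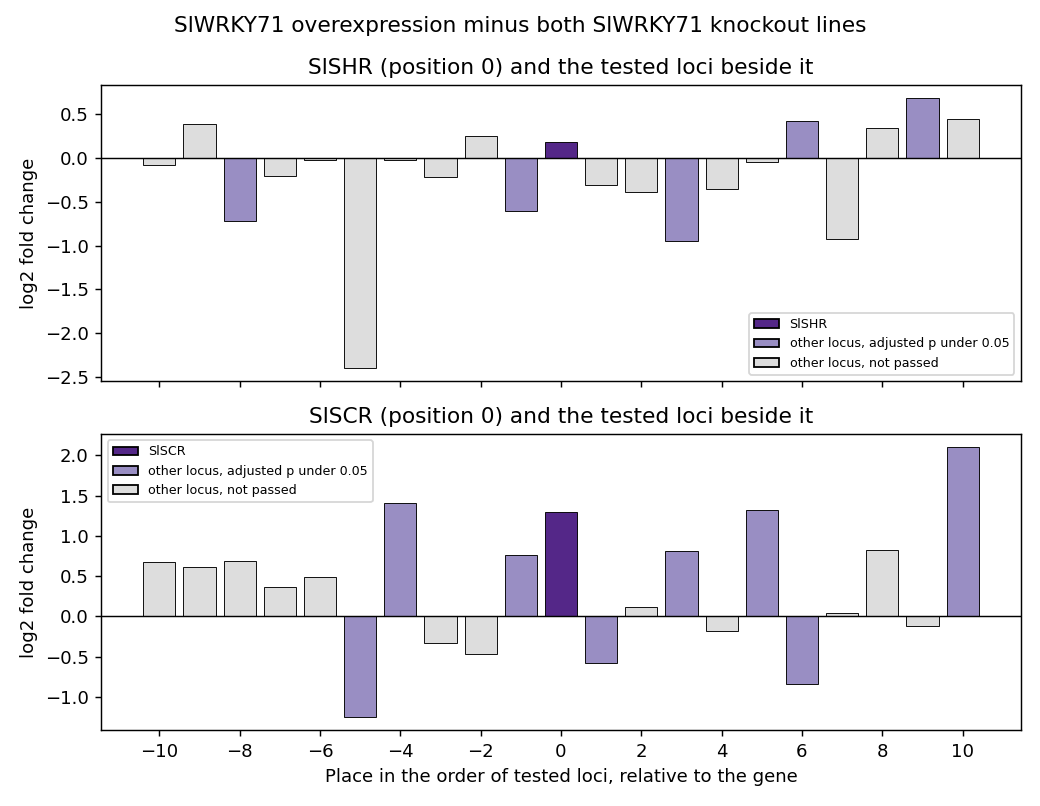
Log2 fold changes in SlWRKY71 overexpression minus both SlWRKY71 knockout lines for the 10 tested loci on either side of SlSHR (top) and SlSCR (bottom); the gene itself is at position 0, and lighter purple bars have an adjusted p under 0.05. Loci on both sides of SlSCR go in both directions, with SlSCR at 1.30.

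The genes most like each member over the 24 libraries were found by Pearson's r of log2(CPM + 0.5) among 18296 others. For SlSHR these were Solyc09g005740 (r = 0.84) and Solyc04g008790 (r = 0.82). Solyc09g005740 had its highest mean in the SlMYB92 knockout, at 6.65 ± 1.07 CPM, and its lowest in SlMYB41 overexpression, at 3.32 ± 0.912 CPM (SD, n = 3), with the control at 3.68 ± 1.50 CPM. Solyc04g008790 had its highest mean in SlWRKY71 knockout line 5, at 12.5 ± 6.15 CPM, and its lowest in line 4, at 7.46 ± 1.19 CPM (SD, n = 3), with the control at 9.44 ± 3.48 CPM. SlSCR ranked 3517th for likeness to SlSHR.

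For SlSCR the most alike were Solyc07g049390 (r = 0.86) and Solyc07g056050 (r = 0.83). Solyc07g049390 had means of 2.23 ± 1.80 CPM in SlWRKY71 overexpression, 0.139 ± 0.144 and 0.0682 ± 0.118 CPM in knockout lines 4 and 5, and 0.900 ± 0.248 CPM in the control (SD, n = 3). Solyc07g056050 had 5.15 ± 3.33 CPM, 1.52 ± 0.373 CPM, 1.25 ± 0.619 CPM and 2.90 ± 0.958 CPM in the same 4 groups. SlSHR ranked 4201st for likeness to SlSCR. These identifiers were picked as the highest among 18296, which raises r and also fixes a like pattern over groups, and no names are paired with them.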

How the data were processed

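Poly(A) RNA of 24 hairy-root samples was sequenced without strand marking as paired 75 bp reads, per the labels' protocols. The submitters' processing notes name Trim Galore 0.6.6 and kallisto 0.46.2, and the values deposited by the authors are estimated counts of each transcript. The sources used here do not name the transcript annotation. Reads of near-identical gene copies are shared out by estimation, so paralogs could affect either gene. For SlSHR and SlSCR all 24 deposited values were whole.

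Estimated counts were rounded. After filterByExpr and TMM (factors 0.909 to 1.12), all 24 libraries entered 1 edgeR quasi-likelihood fit with a mean per group (edgeR 4.0.16, limma 3.58.1, R 4.3.3). Adjusted p is Benjamini-Hochberg over all 18297 genes, with a threshold of 0.05. SE is the absolute log2 fold change divided by the square root of F. Permutation tests used 100000 resamples unless exact. Alternatives included DESeq2 1.42.0. The fit and the permutation tests were tested on simulated data.

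No 2 replicates were identical, and chi-square per degree of freedom was 6.53 to 44.2 between replicates of a group. Each column was assigned to its group by name. Named genes are the members, the 3 targets, and the 2 loci most like each member. The members and lists were chosen with earlier results of these data known. Lists of other pathway genes and of cell type markers were to be filled from names in the reference table, and 0 of 34688 identifiers were found there.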

Additional observations from a re-analysis of the deposited data

How the results depend on the processing

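SlSCR in SlWRKY71 overexpression minus both knockout lines kept its call with RLE factors, no filter, DESeq2 and only the groups compared, and with the column number as a replicate block (1.18, adjusted p = 0.041). Its log2 difference ran from 0.98 to 1.61 when 1 library was left out. For SlSCR across 8 groups the adjusted p was 0.033 with DESeq2 and 0.014 to 0.26 without 1 library. By edgeR it was 0.13 with no filter and 0.23 with the replicate block. SlSCR in SlWRKY71 overexpression passed (1.09) with the SlMYB41 and SlMYB92 groups as reference, and in the SlMYB92 knockout it turned to 0.29 with the SlMYB41 and SlWRKY71 groups as reference. SlSHR in SlWRKY71 knockout line 4 turned to -0.15 with the replicate block. SlSCR between knockout lines 5 and 4 turned to 0.0085 with RLE factors and 0.00033 with DESeq2. With library totals the correlation of the genes was 0.44 (permutation p = 0.032, again with the groups ignored). Without 1 library it ran from 0.22 to 0.43.

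Leaving out 1 library turned these estimates, none of them called, within the ranges given. For SlSHR against control they ran from -0.13 to 0.59 (SlMYB92 knockout), -0.46 to 0.42 (line 4) and -0.088 to 0.74 (line 5). For SlSHR between groups they ran from -0.14 to 0.44 (SlMYB41 overexpression and knockout), -0.18 to 0.44 (SlWRKY71 overexpression and knockout lines), -0.35 to 0.24 (SlMYB92 and SlMYB41 overexpression) and -0.15 to 0.82 (lines 5 and 4). For SlSCR they ran from -0.088 to 0.59 (SlMYB41 overexpression and knockout), -0.77 to 0.023 (SlMYB92 and SlMYB41 overexpression) and -0.32 to 0.25 (lines 5 and 4). The ratio ran from -0.58 to 0.052 (SlMYB41 overexpression and control), -0.43 to 0.11 (SlWRKY71 overexpression and control), -0.16 to 0.41 (SlMYB41 overexpression and knockout), -0.45 to 0.43 (SlMYB92 overexpression and knockout), -0.71 to 0.13 (SlMYB92 and SlMYB41 overexpression), -0.57 to 0.31 (SlMYB92 and SlMYB41 knockouts) and -0.71 to 0.086 (lines 5 and 4). Between SlWRKY71 overexpression and its knockout lines the ratio kept its direction, from 0.65 to 0.97. Its exact permutation p ran from 0.036, without library 2 of line 5, to 0.21, without overexpression library 4. The causes were not tested.

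Deviations from group means had a median correlation of -0.03 for 67 pairs of libraries with equal column number and 0.02 for 185 others. Single pairs ran from -0.45 to 0.54 and from -0.50 to 0.56. The medians showed no pairing by number, but they cannot decide whether some libraries were paired. Of 581 alternative values, 540 kept their direction and side of the threshold. Ratio tests of 3 libraries against 3 cannot go below 0.10, so their side of the threshold was fixed in advance. The share of all genes called moved by over 1.5 times in 13 of 13 comparisons when 1 library was left out. It was lowest, at 2.56% in the SlMYB41 knockout, 0.499% in SlMYB41 overexpression and 1.75% in the SlMYB92 knockout, without control library 5, and was 1.39% in SlMYB92 overexpression without its library 4.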
